A study of Mus musculus with 38 samples.

Results

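A set of 10 endothelial genes was followed across 38 RNA-Seq libraries of sorted mouse cells, 5 of them from the central marrow and the others from the bone-lining niche. They were picked by symbol as markers of vessel identity, and all 10 were among the 13260 genes of the deposited table. Cdh5 and Pecam1 mark endothelium in general, Emcn marks capillaries, sinusoids and veins, Stab1 and Stab2 mark sinusoids, Ephb4 and Nr2f2 mark veins, and Sox17, Efnb2 and Ly6a mark arteries and arterioles. Levels are given in RPKM, the reads on a gene scaled by its length and by the depth of the library. In endothelial cells no member passed the test between myeloma-bearing and healthy mice, in which 0 of all 7880 genes tested (0%) passed. Nr2f2 was 2.58 times as high by mean RPKM in myeloma-bearing mice, Efnb2, Sox17 and Ephb4 were at 0.452, 0.451 and 0.385 times the healthy mean, and the remaining 6 were at 0.703 to 0.999 times. Healthy library L, which was high for most members, carried part of these ratios. Without it, an alternative added after the data were seen, the ratios were 2.996 for Nr2f2, 0.527 for Efnb2, 0.626 for Sox17 and 0.696 for Ephb4, and those of Stab1, Stab2, Ly6a, Emcn and Cdh5 turned to 1.44, 1.38, 1.32, 1.07 and 1.05.

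All mice were C57Bl/KaLwRijHsd, a strain in which 5TGM1 mouse myeloma cells grow, and were 8 to 10 weeks old at injection. Myeloma-bearing mice received 1000000 5TGM1-GFP cells into a vein, healthy mice received PBS, and bones were taken when the experiment ended on day 23 after it. Bone-lining cells were freed with collagenase from crushed long bones of the hindlimb. The bones were washed free of marrow before this step, so it does not apply to the central-marrow myeloma cells. Cells were sorted in aliquots of 100, so that each library is a bulk sample of 100 cells, and replicates of a group came from different mice. Endothelial cells were CD45-/Ter119-/CD31+ (5 libraries from healthy and 5 from myeloma-bearing mice), stromal progenitors were Sca1+ALCAM- (5 and 5), osteoprogenitors were ALCAM+Sca1- (4 and 4), and GFP+ myeloma cells came from the bone lining (5) and from the central marrow (5). CD31 is the protein of Pecam1 and Sca1 is the protein of Ly6a, so the sort itself selected cells on the products of 2 members. Libraries are named by the letter of their code: C, L, M, N and O for healthy mice, and D, E, G, I and J for myeloma-bearing mice. The labels do not say whether a letter stands for the same mouse in different cell types. In a bulk sample, fewer cells of a vessel type and less RNA per cell cannot be told apart.

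Marrow blood enters through arteries and arterioles, passes through wide, leaky sinusoids and leaves by veins. Arterial endothelium carries the ligand ephrin-B2 (Efnb2), and venous endothelium carries its receptor EphB4 (Ephb4). SOX17 is a transcription factor of arterial endothelium, and COUP-TFII (Nr2f2) is a nuclear receptor that holds venous identity and restrains Notch signalling. Stabilin-1 and stabilin-2 (Stab1, Stab2) are scavenger receptors of sinusoidal cells, which clear waste molecules from blood. VE-cadherin (Cdh5) and PECAM-1 (Pecam1) join endothelial cells to each other, and endomucin (Emcn) is a sialomucin of capillaries, sinusoids and veins. SCA-1 (Ly6a) is a surface protein of arterial marrow endothelium, but also of blood stem cells and stromal progenitors.

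In GRCm38, Cdh5 lies on chr8:104101625-104144511 (+), Pecam1 on chr11:106654217-106750628 (-), Emcn on chr3:137341067-137432185 (+), Stab1 on chr14:31139013-31168641 (-) and Stab2 on chr10:86841198-87008025 (-). Sox17 lies on chr1:4490931-4497354 (-), Efnb2 on chr8:8617434-8661242 (-), Ephb4 on chr5:137350109-137378669 (+), Nr2f2 on chr7:70351944-70366735 (-) and Ly6a on chr15:74994877-74998031 (-). All are protein coding, and they lie on 9 chromosomes. RefSeq promoters of GRCm38.p6, from 250 bases before to 50 bases after the start, were matched for 6 members (Emcn, Stab1, Stab2, Ephb4, Nr2f2 and Efnb2). Both strands were searched for AGGAAG and CGGAAG, which hold the core that ETS factors of endothelium bind. The 4 promoters that hold either are shown, 5′ to 3′ on the strand of the gene, with the motif in capitals (CTTCCT and CTTCCG are the same motifs on the other strand). They are Emcn at chr3:137340828-137341127 (+), Stab1 at chr14:31168592-31168891 (-), Stab2 at chr10:87007893-87008192 (-) and Nr2f2 at chr7:70366697-70366996 (-).
Emcn: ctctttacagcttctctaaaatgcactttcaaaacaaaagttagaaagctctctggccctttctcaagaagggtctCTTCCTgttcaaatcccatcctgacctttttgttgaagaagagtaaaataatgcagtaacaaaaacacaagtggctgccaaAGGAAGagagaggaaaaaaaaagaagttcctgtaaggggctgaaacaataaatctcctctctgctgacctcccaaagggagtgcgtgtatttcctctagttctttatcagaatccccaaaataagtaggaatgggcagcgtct
Stab1: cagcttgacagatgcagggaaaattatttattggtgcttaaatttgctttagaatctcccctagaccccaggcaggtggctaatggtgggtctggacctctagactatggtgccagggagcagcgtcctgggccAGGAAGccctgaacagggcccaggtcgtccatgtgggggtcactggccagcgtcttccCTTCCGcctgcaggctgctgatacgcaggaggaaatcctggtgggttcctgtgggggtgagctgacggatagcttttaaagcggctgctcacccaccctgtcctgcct
Stab2: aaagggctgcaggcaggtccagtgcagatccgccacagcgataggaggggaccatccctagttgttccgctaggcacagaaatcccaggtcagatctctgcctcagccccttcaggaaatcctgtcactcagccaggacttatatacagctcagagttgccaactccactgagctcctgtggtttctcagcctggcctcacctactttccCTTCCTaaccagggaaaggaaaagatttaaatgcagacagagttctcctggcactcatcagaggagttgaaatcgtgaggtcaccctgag
Nr2f2: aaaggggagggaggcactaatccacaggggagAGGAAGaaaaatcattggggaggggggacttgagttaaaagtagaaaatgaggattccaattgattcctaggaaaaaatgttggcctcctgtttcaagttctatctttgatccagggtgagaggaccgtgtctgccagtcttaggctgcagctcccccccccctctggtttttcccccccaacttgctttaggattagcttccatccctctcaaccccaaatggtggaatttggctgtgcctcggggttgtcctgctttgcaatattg

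AGGAAG was in 4 of the 6 promoters, against 35.4% of 32851 RefSeq promoters, and CGGAAG was in 1 of 6, against 16.9%. In the Emcn promoter AGGAAG began 174 and 93 bases before the start, on opposite strands. In the Stab2 promoter it began 40 bases before the start, and the Stab1 promoter held both motifs, at 116 and 58 bases before it. The SOX motifs ACAATG and ACAAAG (12.6% and 18.7% of promoters), the GATA motif AGATAA (11.2%), the interferon-stimulated response element (3.44%) and the interferon-gamma activated site TTCNNNGAA (8.30%) were not in these windows of the 6 members. The Ephb4 and Efnb2 promoters, which held none of the 7 motifs, were richer in GC (64.7% and 72.3%) than the median promoter (52.7%).

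Endothelial libraries held 12638287 to 30556601 reads on genes, and all libraries 9735031 to 34883291. Reads behind each value were recovered from the steps of the table. A list of 11 further endothelial markers summed to 1504 to 2652 RPKM in healthy and 1617 to 2040 RPKM in myeloma-bearing endothelial libraries, and to at most 24.6 RPKM in any other library. Within it Erg, a transcription factor of endothelium, averaged 0.480 RPKM in healthy libraries. Ptprc, the gene of CD45, averaged 0.0226 and 0.0317 RPKM in these groups. Markers of stroma and osteoblasts (10 of 10 in the table) summed to 41.4 to 202 and 60.1 to 206 RPKM, against 1043 or more in every stromal progenitor library. Markers of pericytes and smooth muscle (6 of 7 in the table) summed to 155 to 567 and 0.101 to 681 RPKM, and those of megakaryocytes and platelets (3 of 8) to 0.310 to 239 and 1.05 to 236 RPKM. Macrophage markers (4 of 10) summed to 25.5 to 161 and 19.2 to 188 RPKM, mostly from Mrc1, which sinusoids also express, with Csf1r at 0.118 RPKM or less in each library. Neutrophil markers (4 of 8) reached 162 and 21.3 RPKM, erythroid markers (2 of 7) 0.0992 and 13.3 RPKM, lymphatic markers (3 of 5) 118 and 101 RPKM and plasma cell markers (8 of 10, mostly Xbp1) 452 and 303 RPKM. Their part in the levels below was not tested. The healthy endothelial library L stood apart: it had the highest value of its group for 9 of the 10 members, and it had the lowest library scaling factor among endothelial libraries (0.639).

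Emcn was more abundant than Pecam1 and Cdh5. It stood at 1508, 2722, 1442, 1257 and 1219 RPKM in healthy libraries C, L, M, N and O, and at 1482, 1464, 1259, 1256 and 1828 RPKM in D, E, G, I and J. Healthy library L stood above the others. Outside endothelial libraries Emcn was read in 25 of 28 libraries but reached at most 96 reads, or 3.71 RPKM, in stromal progenitor library J of myeloma-bearing mice. It varied least of all members between endothelial libraries, with an SD of 0.37 on the log2(RPKM + 1) scale within groups.

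Pecam1 stood at 344, 542, 283, 331 and 212 RPKM in healthy endothelial libraries C, L, M, N and O, and at 353, 133, 267, 354 and 320 RPKM in D, E, G, I and J. Library E of the myeloma-bearing mice was the lowest, and the groups overlapped. Pecam1 was also read in every myeloma cell library, at 2.77 to 23.2 RPKM (182 to 2074 reads), with means of 11.4 ± 5.02 RPKM in the bone lining and 11.2 ± 7.76 RPKM in the central marrow (SD, n = 5 each). In the same myeloma cell libraries Cdh5 had 0 to 29 reads and Emcn 0 to 15. In stromal progenitors and osteoprogenitors, which were sorted as CD31-, Pecam1 was at 0.327 RPKM or less in 17 of 18 libraries and at 2.19 RPKM (117 reads) in healthy osteoprogenitor library N.

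Cdh5 stood at 231, 392, 221, 176 and 390 RPKM in healthy endothelial libraries C, L, M, N and O, and at 369, 135, 231, 291 and 308 RPKM in D, E, G, I and J. The lowest and the highest values of the groups overlapped widely. In the 28 other libraries it had 0 to 29 reads, except in osteoprogenitor library G of myeloma-bearing mice, where 175 reads gave 2.39 RPKM and Pecam1 had 7 reads.

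**Figure D1:**
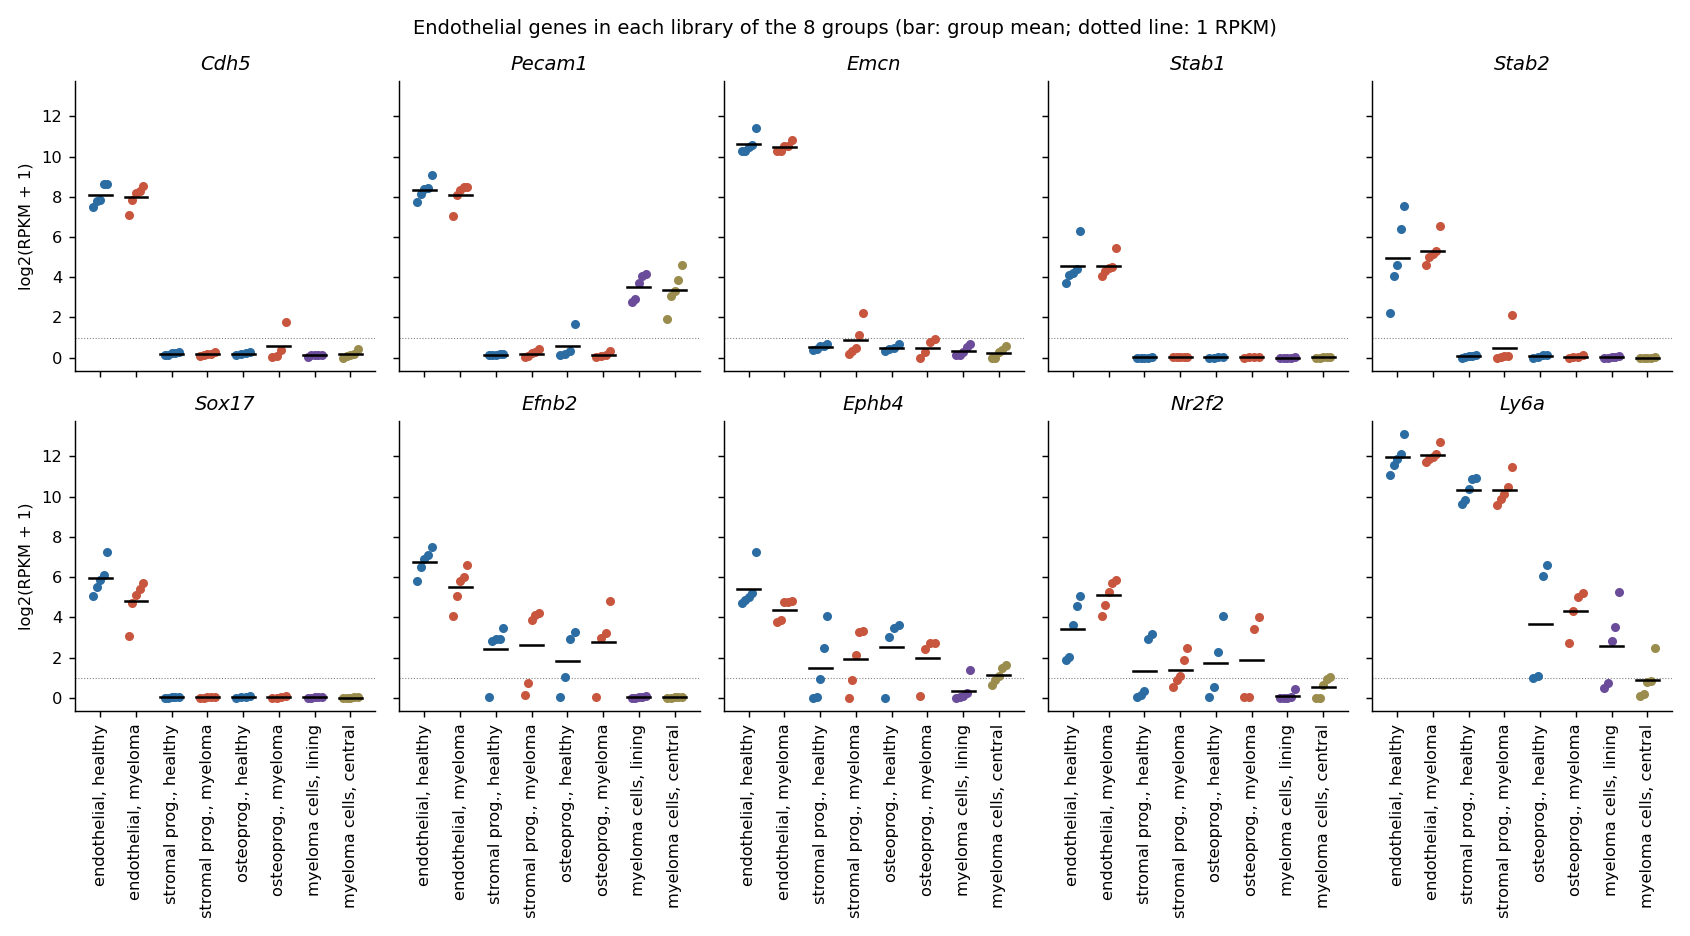
Level of each of the 10 genes in every library, as log2(RPKM + 1), in the 8 groups. Points are libraries, black bars are group means and the dotted line marks 1 RPKM. Stab1, Sox17 and nearly all Cdh5 and Emcn values outside endothelial cells lie below the line, while Pecam1 is above it in all 10 myeloma cell libraries and Ly6a in all 10 stromal progenitor libraries.

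Among the sinusoidal genes, Stab1 was the steadier. It stood at 16.5, 77.1, 17.6, 20.5 and 12.3 RPKM in healthy endothelial libraries C, L, M, N and O, and at 21.7, 15.6, 18.5, 43.4 and 21.2 RPKM in D, E, G, I and J. Apart from L and I, these libraries lay between 12.3 and 21.7 RPKM. Outside endothelial cells Stab1 had at most 6 reads in a library.

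Stab2 varied most of all members, over a 50.3-fold range of RPKM among endothelial libraries, with a within-group SD of 1.56 on the log2 scale. It stood at 15.6, 185, 3.68, 23.8 and 84.7 RPKM in healthy libraries C, L, M, N and O, and at 93.2, 23.0, 30.9, 38.2 and 34.6 RPKM in D, E, G, I and J. The highest and lowest values were both healthy. Elsewhere Stab2 had at most 16 reads, except in stromal progenitor library J of myeloma-bearing mice, the library with the most Emcn reads outside endothelium, where 485 reads gave 3.37 RPKM. Cdh5 had 16 reads and Pecam1 had 12 reads in that library.

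The venous receptor gene Ephb4 stood at 36.0, 153, 25.6, 28.3 and 30.9 RPKM in healthy endothelial libraries C, L, M, N and O, and at 13.6, 12.4, 27.6, 25.8 and 25.9 RPKM in D, E, G, I and J. Without L, the healthy libraries lay between 25.6 and 36.0 RPKM. Ephb4 was not restricted to endothelium: it was above 1 RPKM in 5 of 10 stromal progenitor, 6 of 8 osteoprogenitor and 4 of 10 myeloma cell libraries, at up to 16.03, 11.4 and 2.09 RPKM. The 3 myeloma cell libraries above 1 RPKM in the central marrow and 1 in the bone lining lay between 1.09 and 2.09 RPKM.

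Nr2f2 had the lowest mean of the members over healthy endothelial libraries (14.3 RPKM), but in myeloma-bearing ones its mean (36.9 RPKM) was above those of Sox17, Stab1 and Ephb4. It stood at 32.2, 22.4, 2.73, 3.03 and 11.3 RPKM in healthy libraries C, L, M, N and O, and at 23.6, 15.7, 56.8, 37.8 and 50.7 RPKM in D, E, G, I and J. All 5 myeloma-bearing libraries were above the healthy median of 11.3 RPKM, and 3 (G, I and J) were above every healthy library. Nr2f2 was also read in mesenchymal cells, above 1 RPKM in 5 of 10 stromal progenitor and 4 of 8 osteoprogenitor libraries. Its mesenchymal levels were uneven: among osteoprogenitors of myeloma-bearing mice it had 1, 862, 1168 and 1 reads in D, G, I and J.

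The arterial ligand gene Efnb2 stood at 138, 182, 54.6, 117 and 89.7 RPKM in healthy endothelial libraries C, L, M, N and O, and at 96.3, 63.6, 54.6, 32.8 and 15.7 RPKM in D, E, G, I and J. No myeloma-bearing library was above the healthy median of 117 RPKM, and I and J were below every healthy library. Efnb2 was above 1 RPKM in 7 of 10 stromal progenitor and 6 of 8 osteoprogenitor libraries, at up to 17.9 and 27.0 RPKM, and had at most 5 reads in any myeloma cell library. With Nr2f2 it was a member in which the lowest endothelial library (15.7 RPKM) fell below the highest mesenchymal library of the same condition (27.0 RPKM).

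Sox17 had at most 3 reads in any of the 28 libraries outside endothelium. It stood at 45.2, 149, 67.7, 56.4 and 32.8 RPKM in healthy libraries C, L, M, N and O, and at 33.7, 41.4, 24.9, 7.30 and 50.8 RPKM in D, E, G, I and J. No myeloma-bearing library was above the healthy median of 56.4 RPKM, and G and I were below every healthy library.

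Ly6a was the most abundant member in every endothelial library. It stood at 3072, 8769, 4390, 3798 and 2195 RPKM in healthy libraries C, L, M, N and O, and at 3349, 6722, 3718, 4380 and 4028 RPKM in D, E, G, I and J, with means of 4445 ± 2553 and 4439 ± 1331 RPKM (SD, n = 5 each). Stromal progenitors, sorted for its protein, followed at 776 to 2871 RPKM, below every endothelial library of the same condition. Osteoprogenitors, sorted against it, ranged from 0.986 to 95.2 RPKM, and myeloma cells from 0.0466 to 37.96 RPKM.

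By mean RPKM over the 10 endothelial libraries the order was Ly6a (4442), Emcn (1544), Pecam1 (314), Cdh5 (275), Efnb2 (84.5), Stab2 (53.3), Sox17 (50.9), Ephb4 (37.9), Stab1 (26.4) and Nr2f2 (25.6). The steps from Ly6a to Emcn, from Emcn to Pecam1 and from Cdh5 to Efnb2 held in 10 of 10 libraries. The other neighbours did not separate: Pecam1 exceeded Cdh5 in 7 libraries, Efnb2 exceeded Stab2 in 7, Sox17 exceeded Ephb4 in 7, Ephb4 exceeded Stab1 in 7, and Stab2 exceeded Sox17, and Stab1 exceeded Nr2f2, in 5 of 10.

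Endothelial cells were then compared with each other cell type by limma on log2(RPKM + 1), with genes called where the p adjusted by Benjamini-Hochberg was below 0.1 and the difference exceeded 1 on the log2 scale. In healthy mice 9 of 10 members were called higher in endothelial cells than in stromal progenitors, where 6.69% of the 8457 genes tested were called higher, and 9 of 10 than in osteoprogenitors, where 6.67% of 8258 were. In myeloma-bearing mice 10 of 10 members were called higher than in stromal progenitors (7.05% of 8749 genes), than in osteoprogenitors (8.18% of 8667) and than in bone-lining myeloma cells (17.1% of 9207). These counts describe markers of endothelium: most members passed the filter of 1 RPKM in 4 libraries through the endothelial libraries alone, and Pecam1 and Ly6a were used in the sort. The comparisons share their endothelial libraries.

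The exception in healthy mice was Nr2f2. With all 38 libraries in the fit it was called over stromal progenitors (adjusted p = 0.0728), and in no other alternative. Its log2 fold change was 2.10 ± 1.00 (SE, adjusted p = 0.217) over stromal progenitors and 1.70 ± 1.10 (adjusted p = 0.406) over osteoprogenitors. In myeloma-bearing mice it was 3.72 ± 0.77 (adjusted p = 0.00436) and 3.23 ± 0.98 (adjusted p = 0.0441). The calls of Ephb4 and Efnb2 were the next closest to the threshold. Ephb4 was 2.89 ± 0.97 higher than in healthy osteoprogenitors (adjusted p = 0.0728) and Efnb2 was 2.90 ± 0.95 higher than in stromal progenitors of myeloma-bearing mice (adjusted p = 0.0621). Between cell types, leaving out a letter removed its library from each type that had one. The call of Ephb4 over healthy osteoprogenitors was lost whichever letter was left out (adjusted p = 0.103 to 0.277), and that of Efnb2 over stromal progenitors without letter D, E, G or I (adjusted p = 0.114 to 0.239). Over stromal progenitors of myeloma-bearing mice the call of Ephb4 (2.46 ± 0.86, adjusted p = 0.0804) was lost whichever letter was left out (adjusted p = 0.103 to 0.263). Over osteoprogenitors of myeloma-bearing mice Efnb2 (2.75 ± 0.94, adjusted p = 0.0739) was lost without letter D, E, I or J (0.118 to 0.316), Ephb4 (2.39 ± 0.81, adjusted p = 0.0714) without D, G, I or J (0.216 to 0.229) and Nr2f2 without D, G or J (0.114 to 0.261). These calls also depended on the processing, counted here without the fits that hold the letter as a block. That of Ephb4 over healthy osteoprogenitors was lost with a pseudocount of 0.1, no filter, median-ratio scaling or voom (adjusted p = 0.102 to 0.207), and that of Efnb2 over osteoprogenitors of myeloma-bearing mice under 6 choices (adjusted p = 0.107 to 0.303). In myeloma-bearing mice that of Ephb4 over osteoprogenitors was lost under 4 (adjusted p = 0.116 to 0.227), and those of Ephb4 and Efnb2 over stromal progenitors under 2 each (adjusted p = 0.119 to 0.128). With a pseudocount of 1 Emcn had the largest differences, of 9.63 to 10.15 on the log2 scale, although with voom Sox17 was above it over healthy stromal progenitors (11.78 against 11.69), and Ly6a had the smallest over stromal progenitors, of 1.63 ± 0.37 in healthy (adjusted p = 0.00777) and 1.75 ± 0.31 in myeloma-bearing mice (adjusted p = 0.00125). The healthy call of Ly6a was lost with all 38 libraries in the fit (adjusted p = 0.203), with no variance trend (0.116) and with voom on all 38 (0.240), and that in myeloma-bearing mice with all 38 (0.1803) and voom on all 38 (0.133). Over osteoprogenitors its calls were lost with voom in healthy (adjusted p = 0.542, and 0.701 on all 38) and myeloma-bearing mice (0.107 and 0.720), and over myeloma cells with voom on all 38 (0.549). The call of Stab2 over healthy osteoprogenitors was lost with voom (adjusted p = 0.103). For genes at or near 0 in the other cell type, such as Stab1 and Sox17, a fitted difference depends on the pseudocount of 1 and is not a bound on the fold.

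The comparison of endothelial cells from myeloma-bearing and healthy mice asks whether myeloma growth is accompanied by a change in vessel identity. With limma none of the 7880 genes tested was called (0%), 414 had an unadjusted p below 0.05, and voom on the recovered reads called 4. When all 38 libraries shared the estimate of the spread, limma called 150 and voom 250 of 12683 genes. The 10 members were called in none of these fits.

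**Figure D2:**
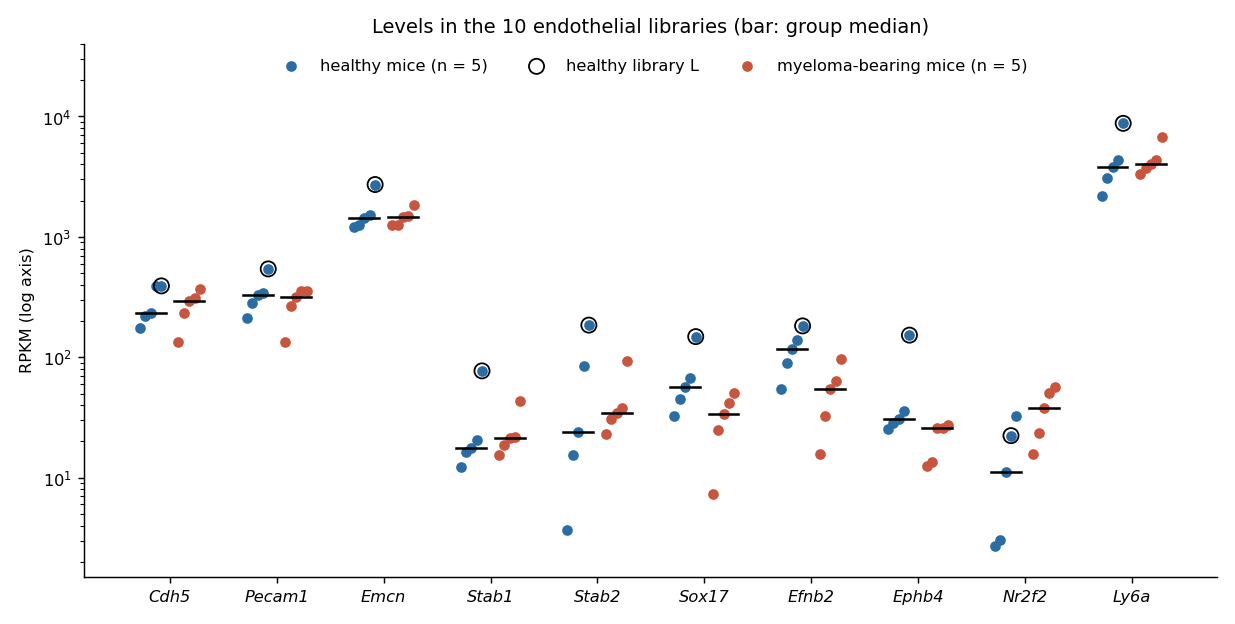
RPKM of each gene in the 10 endothelial libraries, on a log axis, for healthy (blue) and myeloma-bearing (red) mice, with group medians as bars and healthy library L circled. The groups overlap for every gene, and L is the highest healthy library for all genes but Nr2f2.

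The largest difference was that of Nr2f2, 1.68 ± 0.95 higher on the log2 scale in myeloma-bearing mice (95% interval -0.32 to 3.67, adjusted p = 0.930). Efnb2 followed at -1.25 ± 0.69 (interval -2.69 to 0.19, adjusted p = 0.925), Sox17 at -1.16 ± 0.78 (interval -2.80 to 0.48, adjusted p = 0.943) and Ephb4 at -1.03 ± 0.82 (interval -2.74 to 0.68, adjusted p = 0.956). Exact two-sided permutation of the 5 and 5 libraries, one gene at a time and with no adjustment for the 10 genes, gave p = 0.0476 for Nr2f2, 0.0556 for Efnb2, 0.0635 for Sox17 and 0.0317 for Ephb4. The other members lay between 0.468 and 0.992 by this permutation. The unadjusted p from limma was 0.0947 for Nr2f2, 0.0849 for Efnb2, 0.155 for Sox17 and 0.224 for Ephb4. Nr2f2, Efnb2, Sox17 and Ephb4 kept their direction when any library was left out. Without healthy library L the difference of Ephb4 was -0.57, and those of Efnb2, Sox17 and Nr2f2 were -1.06, -0.85 and 1.96. Without Sox17's lowest library, I, its difference was -0.73.

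The other 6 members lay close to 0. The log2 fold change was -0.08 ± 0.48 for Cdh5, -0.28 ± 0.46 for Pecam1 and -0.11 ± 0.30 for Emcn. It was -0.00 ± 0.85 for Stab1, 0.34 ± 0.96 for Stab2 and 0.12 ± 0.31 for Ly6a, and the adjusted p of these 6 genes lay between 0.985 and 1. For Stab2 and Ly6a the direction differs from that of the ratios of mean RPKM (0.703 and 0.999), in which high libraries weigh more. The intervals differ in width: that of Emcn ran from -0.73 to 0.52 and that of Ly6a from -0.53 to 0.76, so that a change of 1 on the log2 scale lies outside both, while that of Stab2 ran from -1.66 to 2.35. With scaling by median ratios Cdh5, Emcn and Stab1 turned to 0.10, 0.08 and 0.18. Stab2 was at 0.99 without healthy library L and at -0.34 without healthy library M, so that its direction rested on M. It was 0.03 without D, 0.11 without C, 0.53 without E and 0.71 without O. Left-out libraries also turned the sign of Cdh5 (0.14 without E, 0.05 without L or O), Emcn (0.10 without L), Stab1 (0.43 without L, and above 0 without D, E, G or J) and Ly6a (-0.04 without E, -0.10 without O).

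**Figure D3:**
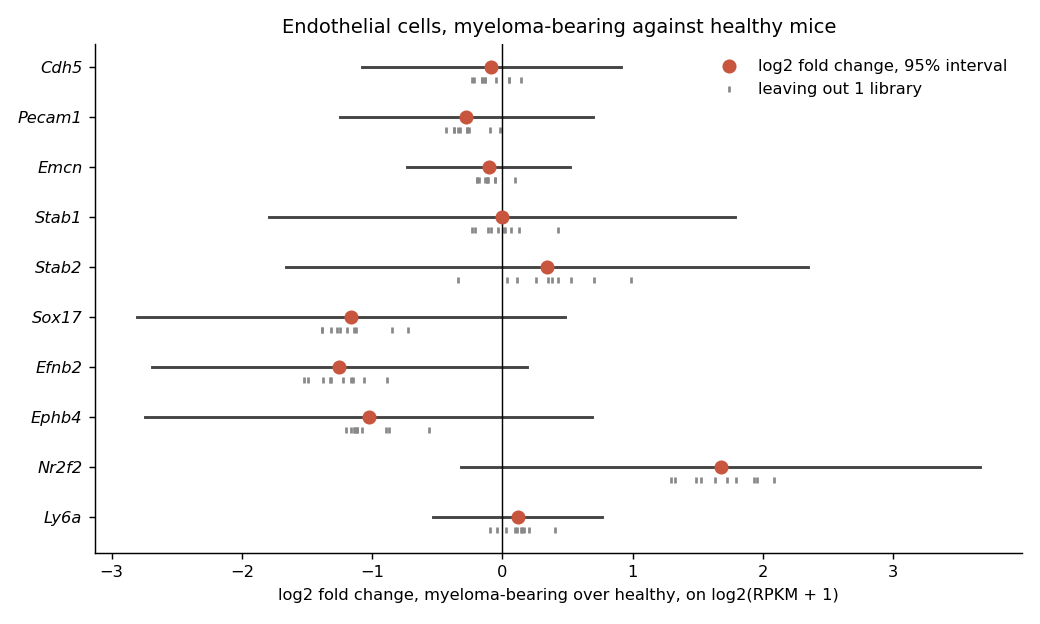
Log2 fold change of each gene in endothelial cells, myeloma-bearing over healthy, with its 95% interval from limma (line) and the values found when 1 library was left out (ticks). All 10 intervals hold 0. Nr2f2 stays above 0 and Efnb2, Sox17 and Ephb4 below 0 whichever library is left out.

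Nr2f2 and the arterial genes can be read within the same library, where a difference of 2 genes on the log2(RPKM + 1) scale depends little on the scaling of the library. The log2 difference of Nr2f2 minus Efnb2 was -2.06 to -4.87 in healthy endothelial libraries, with a mean of -3.34 ± 1.08 (SD, n = 5). In myeloma-bearing libraries it was -1.99 to 1.63, with a mean of -0.41 ± 1.55. The groups did not overlap, by a margin of less than 0.1 between the nearest libraries, C (-2.06) and D (-1.99). This pair joins the members with the largest rise and the largest fall on the log2 scale. The share of gene pairs that separate the groups was not counted. Efnb2 was above Nr2f2 in all 5 healthy libraries and in 2 of 5 myeloma-bearing ones, D and E. Against Sox17, Nr2f2 was at -2.53 ± 1.57 in healthy and 0.31 ± 1.401 in myeloma-bearing libraries, and these ranges overlapped. For the receptor and ligand genes of the ephrin pair, Ephb4 minus Efnb2 was -1.35 ± 0.72 in healthy and -1.12 ± 1.399 in myeloma-bearing libraries. These pairs were chosen after the values were known and carry no test.

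**Figure D4:**
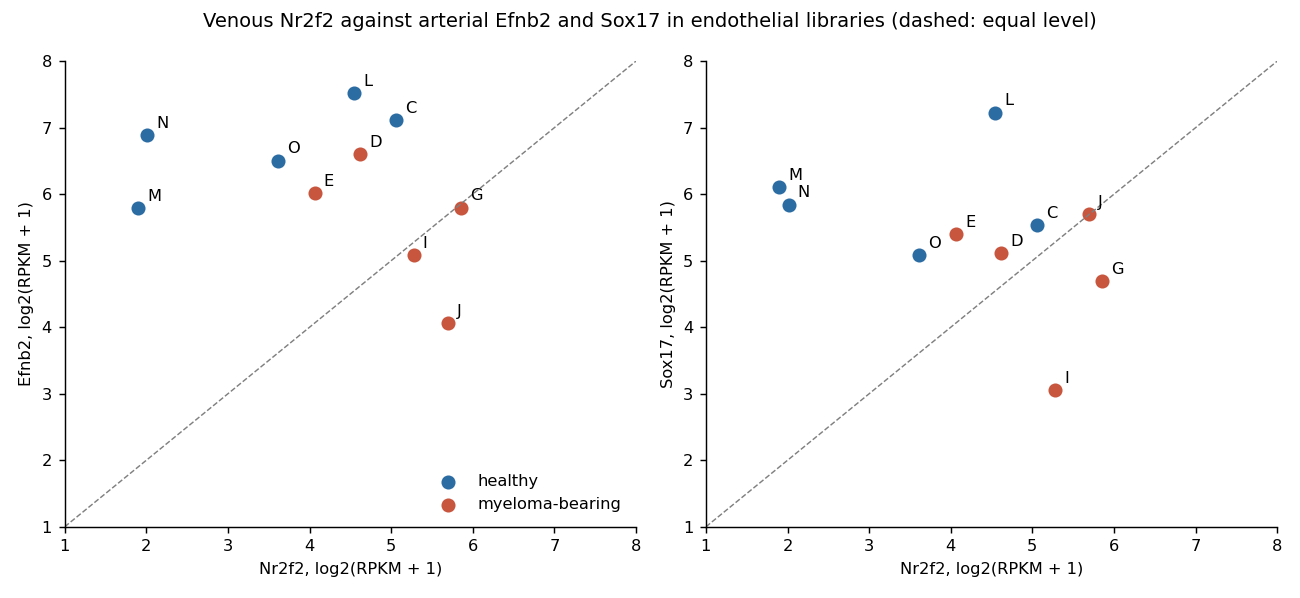
Venous Nr2f2 against arterial Efnb2 (left) and Sox17 (right) in each endothelial library, as log2(RPKM + 1), with library letters and a dashed line of equal level. All 5 healthy libraries lie above the line in both panels, and myeloma-bearing G, I and J lie on or below it on the left.

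Other genes of the same vessel types were read from lists written with earlier results of these data known. The lists were read only in the limma fit of the endothelial libraries, where no gene was called at all, listed or not. Of 18 sinusoidal or venous genes tested 13 were positive and 5 negative, with a median log2 fold change of 0.40, and of 20 arterial genes 6 were positive and 14 negative, with a median of -0.24. Of 20 general endothelial genes 7 were positive and 13 negative (median -0.16), beside 4170 of all 7880 genes (median 0.07). Scaling by median ratios moved the median of all genes to 0.19, and Nr2f2, Efnb2, Sox17 and Ephb4 to 1.83, -1.07, -0.98 and -0.84.

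Maf and Gpr182 were at the top of the sinusoidal or venous list. Maf, a transcription factor of sinusoidal endothelium, averaged 69.8 ± 65.1 RPKM in myeloma-bearing and 8.68 ± 11.8 RPKM in healthy libraries (log2 fold change 3.44 ± 1.14, adjusted p = 0.821), and Gpr182, a receptor of sinusoidal endothelium, was at 2.61 ± 1.21 (adjusted p = 0.925). Mrc1, the mannose receptor of sinusoids and macrophages, and Tfpi, an inhibitor of clotting, were at the bottom, at -0.92 ± 0.75 and -0.40 ± 0.47. In the arterial list the Notch ligand genes Jag1 and Jag2 were lowest, at -1.30 ± 0.90 and -1.28 ± 1.01. The arterial connexin gene Gja4 and the receptor gene Acvrl1 were highest, at 2.38 ± 1.06 and 1.54 ± 1.00, against the direction of the list. In the general list Erg and Esam were highest, at 1.56 ± 0.98 and 0.75 ± 0.42, and Robo4 and Cd34 lowest, at -0.57 ± 0.73 and -0.50 ± 0.46.

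Interferon-response genes are given beside Ly6a, which is itself known to be induced by interferon. All 20 listed genes were positive, with a median log2 fold change of 2.17. None was called in the same limma fit, which called no gene. Their calls in the fits with all 38 libraries were not read. Zbp1, a sensor of nucleic acids, and Mx2, an antiviral GTPase, were highest, at 5.23 ± 1.03 (adjusted p = 0.253) and 5.06 ± 1.13 (adjusted p = 0.479), and Irf1 and Gbp2 lowest, at 0.31 ± 0.70 and 0.72 ± 0.70. Mx2 was near 0 in healthy libraries, so its value is no bound on the fold. Ly6a was at 0.12 ± 0.31 with an interval of -0.53 to 0.76.

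To see which members varied together between aliquots, the 45 pairs were correlated over the 10 endothelial libraries after each group was centred on its mean, with exact two-sided permutation within groups. Of the 45 pairs 40 had a positive Pearson r (median 0.40), and libraries share their scaling across all pairs. Without the 2 libraries farthest from the median of the first gene of each pair, 28 of 45 were positive. Only Emcn with Sox17 had an adjusted p of Pearson r below 0.1, at 0.0938 (r = 0.757, exact permutation p = 0.00208, Spearman rho = 0.867 with exact permutation p = 0.00368 and adjusted p = 0.0477), with r = 0.563 when the 2 libraries farthest from the median of Emcn were left out. By rank Pecam1 with Stab1 (rho = 0.915), Cdh5 with Stab2 (rho = 0.879) and Ephb4 with Nr2f2 (rho = 0.842) also reached an adjusted p of 0.0477 by exact permutation, with r of 0.757, 0.695 and 0.654. These became 0.780, 0.714 and 0.634 without the 2 farthest libraries. With Emcn counted beside Cdh5 and Pecam1 as a gene of endothelium in general, the 9 pairs within the venous and sinusoidal class or within the arterial class had a median r of 0.50, and the 12 pairs between the classes had a median of 0.17. Without the 2 farthest libraries r within classes stayed positive for Sox17 with Ly6a (0.703), Ephb4 with Nr2f2 (0.634) and Stab1 with Ephb4 (0.265). It was negative for Stab1 with Stab2 (-0.112) and Nr2f2 (-0.137), and for Stab2 with Ephb4 (-0.213) and Nr2f2 (-0.155). It was also negative for Efnb2 with Sox17 (-0.224) and Ly6a (-0.056), and the higher median within classes did not hold. Emcn, outside both classes here, had r of 0.757 with Sox17 and 0.717 with Ly6a. Nr2f2 and Efnb2 had an r of 0.12 once the groups were centred. Stab1 with Ephb4 had the highest r (0.835), which fell to 0.265 without the 2 farthest libraries, and L was the highest library in both genes.

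**Figure D5:**
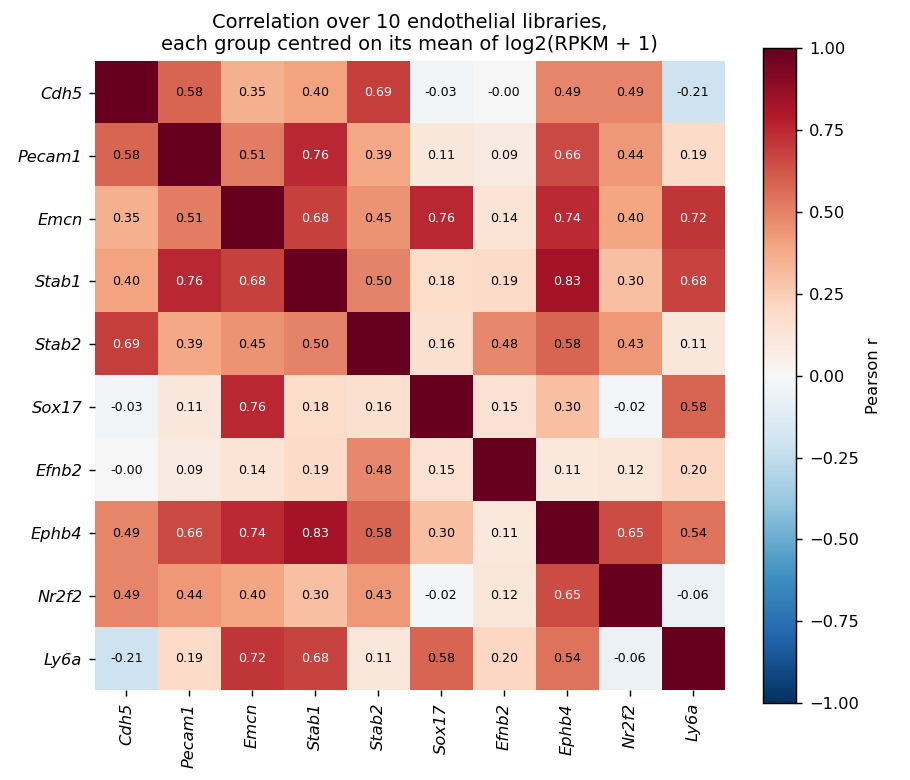
Pearson r between the 10 genes over the 10 endothelial libraries, after each group was centred on its mean log2(RPKM + 1). Red is positive and blue negative. 40 of 45 pairs are positive, and Efnb2 has r below 0.25 with every gene but Stab2.

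In the other cell types 4 members passed the filter between myeloma-bearing and healthy mice, and none was called. In stromal progenitors 0 of 8747 genes (0%) were called by limma, 437 had an unadjusted p below 0.05, and voom with all 38 libraries called 73. The log2 fold changes there were 0.19 ± 1.08 for Efnb2, 0.42 ± 0.99 for Ephb4, 0.06 ± 0.83 for Nr2f2 and -0.00 ± 0.36 for Ly6a. In osteoprogenitors, where 0.0115% of 8664 genes were called, they were 0.95 ± 1.15, -0.53 ± 1.06, 0.14 ± 1.17 and 0.64 ± 1.23. The differences of Nr2f2, Efnb2 and Ephb4 in endothelium were not shown to differ from those in stromal progenitors: the interaction was 1.62 ± 1.23, -1.44 ± 1.24 and -1.45 ± 1.26 (adjusted p = 0.967 each), and limma called 0 of 10596 genes (0%, 552 at an unadjusted p below 0.05).

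Bone-lining myeloma cells were compared with central-marrow ones for the 3 members that passed the filter there, in a contrast in which 0.203% of 8857 genes were called. Ly6a was at 0.407, 10.6, 37.96, 0.665 and 6.13 RPKM in bone-lining libraries D, E, G, I and J, and at 0.0466, 0.701, 0.144, 4.62 and 0.796 RPKM in central libraries D, E, G, I and J. The highest values, in E, G and J, were from the bone lining, and the groups overlapped (log2 fold change 1.70 ± 0.78, adjusted p = 0.832). Pecam1 was at 0.18 ± 0.48 (adjusted p = 0.987) and Ephb4 at -0.79 ± 0.41 (adjusted p = 0.844), and neither was called.

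Across all 38 libraries and 12683 genes the nearest patterns by Pearson r, as a description only, since the points share cell types and depth, were mostly other endothelial genes. Sox18 was nearest to Cdh5 (r = 0.994) and Emcn (0.996), Mmrn2 to Stab1 (0.995), Cd300lg to Sox17 (0.988) and Clca1 to Stab2 (0.983), followed in Stab2 by Ednrb and Plxnd1 (0.963 each). Pecam1, which myeloma cells also carried, was nearest to Gimap4 (0.973), F11r (0.962) and Gimap5 (0.943). Members read in mesenchymal cells had looser neighbours: Nrp1 for Efnb2 (0.927), Tspan9 for Ephb4 (0.860) and Tcf7l1 for Nr2f2 (0.822), whereas Ly6a was nearest to its neighbour in the Ly6 family, Ly6c1 (0.928). Cdh5 was next nearest to Emcn and Cldn5, Emcn to Ctla2a and Cd300lg, Stab1 to Podxl and Eltd1, and Sox17 to Myct1 and She. Efnb2 was next nearest to Fmo1 and Abcc4, Ephb4 to Apbb2 and Rb1, Nr2f2 to Apold1 and Pcp4l1, and Ly6a to S100a13 and Mgst1.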

How the data were processed

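RNA-Seq libraries of 100 sorted cells were made with SmartSeq2 and sequenced as 50-base single reads. The authors aligned reads with STAR 2.4.0 to GRCm38/mm10, counted them with featureCounts (Subread 1.4.5-p1) at default settings, which do not use strand, kept genes above 1 count per 1000000 reads in at least 4 samples, and deposited RPKM values computed with edgeR. Reads of a gene and of an antisense partner can therefore not be told apart. Whole reads were recovered from the RPKM steps for all 13260 genes, of which 9263 had a library with a single read. Of the gene lengths that these reads imply, 78.8% were within 0.02 of a whole number. Reads that share a factor in every library cannot be told from reduced ones. The test kept genes that exceeded 1 RPKM in 4 or more libraries of the comparison. It used limma 3.58.1 (lmFit, eBayes with trend, R 4.3.3) on log2(RPKM + 1), a scale that understates the change of low genes. The fit was tested on simulated data for 1 contrast between cell types, with large changes in abundant genes only. Small changes between myeloma-bearing and healthy mice were not simulated. Alternatives changed the pseudocount (0.1 or 5), filter, variance trend, weights, scaling and libraries, or used voom on recovered reads. Exact permutation was enumerated with Python 3.11.15 and numpy 2.4.6, and scipy 1.17.1 gave the ranks. Groups came from the labels; p-values measure the spread between these libraries. Named genes are all 10 members, the 2 highest and 2 lowest of each list, and the 3 most alike genes per member; the marker genes Ptprc, Csf1r and Xbp1 were named outside this rule, after their values were seen. Members and lists were chosen with earlier results of these data known, and motifs after the promoters were seen.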

Additional observations from a re-analysis of the deposited data

Results flagged for a closer look

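Of 42 sets of a member and a group of 4 or 5 libraries, 6 held a library far from the rest by Dixon's criterion, which chance meets in about 1 in 20 sets. Healthy endothelial library L was the far one in 3 of them, at 2722 RPKM of Emcn (others 1219 to 1508), 77.1 RPKM of Stab1 (others 12.3 to 20.5) and 153 RPKM of Ephb4 (others 25.6 to 36.0). In endothelial cells of myeloma-bearing mice, library E had 133 RPKM of Pecam1 against 267 to 354 in the others. Healthy stromal progenitor library M had 0.0215 RPKM of Efnb2 against 6.14 to 9.95, and osteoprogenitor library D of myeloma-bearing mice had 0.0679 RPKM of Ephb4 against 4.38 to 5.71.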

How the results depend on the processing

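Of 1267 log2 fold changes of members under the alternatives, 1153 kept their direction and their side of the threshold, 57 lost their call, 1 gained it and 56 reversed; the cause was not tested. Genes called between myeloma-bearing and healthy endothelial cells were 2 with no filter, 150 with all 38 libraries in the fit, 3 with no variance trend, 4 with voom and 250 with voom on all 38, against 0. In stromal progenitors they were 28, 1 and 73 (all 38, no trend, voom on all 38; left-out libraries 0 to 1), and in osteoprogenitors, against 1, they were 0 with no filter or voom, 24, 2, 2 with array weights and 26 (left-out libraries 0 to 1). Between myeloma cells they were 1 with no filter, 8 and 10 with voom, and 3 to 16 without 1 letter (3 without D, 10 without G), against 18. Endothelial cells differed from stromal progenitors at 2469 and 2862 genes in healthy (all 38, voom on all 38; 1465 in the reported fit, 1041 to 1263 without 1 letter) and 2187 and 2322 in myeloma-bearing mice (1412; 983 to 1133). They differed from osteoprogenitors at 2570 and 2829 in healthy mice (1361; 483 to 697 without L, M, N or O, and 1351 without C) and in myeloma-bearing mice at 1533 (755 to 906 without D, G, I or J, and 1454 without E), with fewer libraries in each such fit. The interaction, whose alternatives were chosen after seeing the data, called 1 gene with no filter, 12 and 42 with all 38 libraries, and 0 to 2 without 1 letter. With the replicate letter as a block, 12 genes were called between myeloma cells and 1414, 1237, 1316, 1407 and 3844 between endothelial cells and the other types, and Ephb4 over healthy osteoprogenitors (adjusted p = 0.108) and stromal progenitors of myeloma-bearing mice (0.106), and Efnb2 over osteoprogenitors of myeloma-bearing mice (0.146), were no longer called; the block changed no other call of a member. The letters were not taken as pairs, since in no comparison did every same-letter pair of libraries deviate from its group means with r over 0.1 (the highest was 0.145). Libraries fitted their own letter best in 4 of 4 pairs of endothelial and osteoprogenitor libraries of myeloma-bearing mice, 3 of 4 of their stromal progenitor and osteoprogenitor libraries, and 0 to 3 of 4 or 5 elsewhere. In endothelial cells Cdh5 reversed to 0.0018 with array weights, 0.098 with median-ratio scaling and 0.022 with voom on all 38 (-0.24 to 0.14 without 1 library). Emcn reversed to 0.0050, 0.077, 0.086 and 0.24 (array weights, median ratios, voom, voom on all 38; -0.19 to 0.10 without 1 library), and Stab1 to 0.0043 with a pseudocount of 0.1 and to 0.26, 0.18, 0.031 and 0.035 (-0.23 to 0.43). Without 1 library Stab2 ran from -0.34 to 0.99 and Ly6a from -0.10 to 0.40. In stromal progenitors Efnb2 was -0.0085 with voom, Nr2f2 -0.10 with a pseudocount of 5 and -0.068 with array weights, and Ly6a 0.12 with array weights and 0.022 with median ratios; without 1 library these ran from -0.41 to 0.81, -0.27 to 0.52 and -0.29 to 0.18. In osteoprogenitors Ephb4 was 0.18 and 0.17 with voom, and Nr2f2 -0.26 with a pseudocount of 0.1 and -0.30 and -0.59 with voom; without 1 library Ephb4, Nr2f2 and Ly6a ran from -1.37 to 0.11, -0.42 to 0.75 and -0.25 to 1.61. Without 1 letter Pecam1 in myeloma cells ran from -0.032 to 0.44, and the interaction of Ly6a from -0.22 to 0.46. The fewest reads on a member in an endothelial library were 307, on Sox17; reads of amplified libraries of 100 cells are not independent molecules, and what depth limits was not tested.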
